A study of Mus musculus with 18 samples.

Results

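Gene expression in the pituitary gland was compared between mice without the long noncoding RNA MIR205HG (lncKO) and wild-type mice. The comparison rests on 6 arrays of the 18 in the series, taken by their labels: arrays 13, 14 and 15 from lncKO pituitary and arrays 10, 11 and 12 from wild-type pituitary. Arrays 16, 17 and 18 came from the pituitary of mice without miR-205, a microRNA (miR-205 KO), and the other 9 arrays hold skin of the same 3 genotypes. All groups are labelled C57BL/6, female, 5 to 6 weeks old and untreated, with 3 arrays per group. How the knockout alleles were made, and whether each array stands for a separate mouse or for pooled glands, the sources used here do not say. The p-values therefore measure only the spread between these arrays, which may be technical.

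The anterior pituitary holds several kinds of endocrine cell, each making its own hormone: growth hormone in somatotrophs, prolactin in lactotrophs, luteinising and follicle-stimulating hormone in gonadotrophs, thyroid-stimulating hormone in thyrotrophs, and peptides cut from the precursor Pomc in corticotrophs and melanotrophs. Releasing and inhibiting hormones from the hypothalamus, such as somatostatin and corticotropin-releasing hormone, act on receptors of these cells, and glucocorticoids from the adrenal gland feed back on them. A long noncoding RNA acts as RNA or through its transcription, without coding for a protein. The transcript of the MIR205HG locus also contains the hairpin from which miR-205 is cut, so the locus has 2 products, and the series holds a knockout for each.

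The mature miR-205 strands are shown because they are the product that miR-205 KO mice lack and because they lie within the host transcript on the RefSeq annotation. They are written 5′ to 3′ from RefSeq (GRCm38.p6), with the seed, bases 2 to 8, in capitals. The 5p strand lies at chr1:193507503-193507524 and the 3p strand at chr1:193507467-193507488, both on the minus strand.
miR-205-5p: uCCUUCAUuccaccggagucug
miR-205-3p: gAUUUCAGuggagugaagcuca

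The Clariom S array carries 22206 probe sets, and 19572 of them have exactly 1 gene symbol. None of these measures the MIR205HG transcript or miR-205, so the genotypes could not be checked and are those of the labels. Array medians lay between 84 and 91 intensity units on the 6 arrays, and 24.6% to 25.3% of an array's probe sets did not exceed an intensity of 16. Log2 intensities correlated across genes, which are not independent replicates, at r = 0.992 to 0.993 among lncKO arrays, at 0.990 to 0.993 among wild-type arrays and at 0.987 to 0.991 between lncKO and wild-type arrays. The sex label went against the data in pituitary. The Y-linked genes Kdm5d, Eif2s3y and Uty had intensities of at least 172 on all 9 pituitary arrays and of at most 13 on all 9 skin arrays, although both tissues are labelled female. The extraction text beside the pituitary samples speaks of ear tissue. Hormone genes nevertheless marked the 6 arrays as pituitary: Gh lay between 817571 and 966812 and Prl between 776355 and 911911. Because no probe set measures the targeted transcript and the sex label did not match, directions below are those between arrays labelled lncKO and arrays labelled wild type.

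Intensity is the array's brightness for a gene on a linear scale, and it ranks samples for the same gene but not different genes within a sample. Differences are log2 fold changes of lncKO over wild type with their standard errors, n = 3 arrays per group, from limma's moderated linear model of the 9 pituitary arrays. A gene was called changed when its two-sided p, adjusted by Benjamini-Hochberg over all 19572 probe sets, was under 0.05. In bulk tissue, fewer cells of a type and less RNA per cell cannot be told apart.

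Of 19572 probe sets, 137 (0.700%) changed in lncKO pituitary, 67 of them higher (0.342%) and 70 lower (0.358%). The change was at least 2-fold for 57 of those higher and for 64 of those lower, and the median log2 fold change was 1.31 among genes called higher and -1.32 among genes called lower, against 0.01 over all probe sets. The 3 lncKO arrays lay wholly above or wholly below the 3 wild-type arrays for all 137 called probe sets, and for 3294 probe sets in all (16.8%), 8.84% higher and 7.99% lower. At an unadjusted p under 0.05 there were 1311 probe sets higher (6.70%) and 1136 lower (5.80%). The count depended on single arrays: it was 11 without wild-type array 12, 44 without lncKO array 13, 67 without lncKO array 15, 74 without lncKO array 14 and 74 without wild-type array 11. It was also 11 when intensities under 16 were raised to 16 before the log. In every fit that left out 1 array, 9 of the 137 kept their call: Doc2b, Mettl21e, Aqp11, Sgk1, Mrpl20, Uxs1 and Cep85l were higher, and Slc38a6 and Crb1 lower. Of the 31 called genes named below, a fit of the 6 arrays alone lost 12 (Zbtb16, Arrdc2, Sult1a1, Nr4a1, Nr4a3, Slc39a11, Sstr5, Tbx19, Crhr1, Sox2, Eif2s3y and Idi1, with adjusted p of 0.0534 to 0.128). A fit of all 18 arrays lost 8 (Slc43a1, Zbtb16, Fam107a, Crhr1, Fkbp5, Tsc22d3, Txnip and Ciart). Trend and robust estimation lost Nr4a1 and Nr4a3, and the floor lost 30, all but Sgk1. With the floor the log2 fold changes of the 31 genes were the same as without it. Counts of called list members below stand against 0.700% of all probe sets called, 0.342% higher and 0.358% lower. The lists were chosen with earlier results of these data known. Doc2b, Mettl21e, Aqp11, Slc38a6, Crb1 and Pdk4 belong to a fixed set of named genes chosen in the same way. Their own calls within the lists that hold them are therefore not evidence about those lists.

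**Figure D1:**
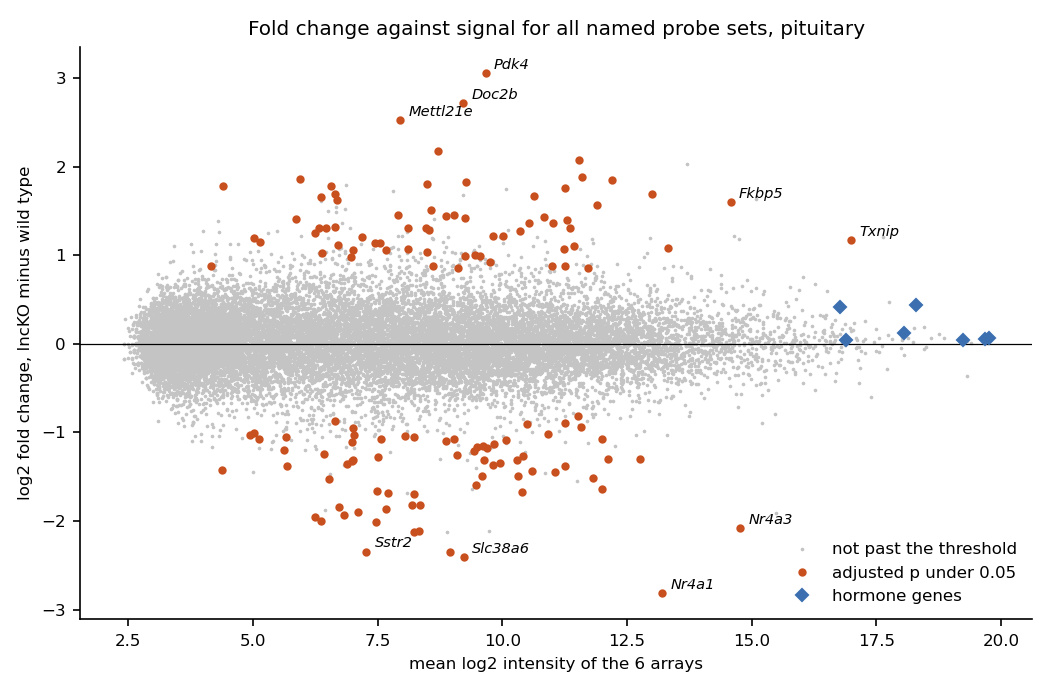
Each point is 1 of the 19572 probe sets, with the mean log2 intensity of the 6 arrays on the horizontal axis and the log2 fold change of lncKO over wild type on the vertical axis; orange points are the 67 probe sets called higher and the 70 called lower, and blue diamonds are the 7 hormone genes. Called genes lie at low and at high intensity, with Pdk4 highest at 3.06 and Nr4a1 lowest at -2.81.

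Among genes that rose, the largest difference was that of Pdk4, a kinase that switches off the pyruvate dehydrogenase complex and is known to be induced by fasting. Pdk4 had intensities of 4219, 2532 and 1208 on lncKO arrays 13, 14 and 15, of 466, 584 and 1254 on the miR-205 KO arrays and of 323, 360 and 193 on the wild-type arrays. Every lncKO array was above every wild-type array, while 1 miR-205 KO array reached the lncKO range. The log2 fold change was 3.06 ± 0.45 (8.32-fold, 95% confidence interval 4.22 to 16.4; limma adjusted p = 0.0123). Without wild-type array 12 the adjusted p was 0.0693. The other 10 measured members of the pyruvate dehydrogenase list, which are its kinases, phosphatases and subunits, did not pass; Pdk2 had a log2 fold change of 0.56 ± 0.26 and Pdk1 one of -0.27 ± 0.17.

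Doc2b, a calcium sensor with C2 domains that acts in the fusion of secretory vesicles, had 2086, 1283 and 1326 in lncKO, 343, 525 and 602 in miR-205 KO and 352, 165 and 217 in wild type. The lncKO arrays stood above all 6 other pituitary arrays. The log2 fold change was 2.71 ± 0.30 (6.55-fold, adjusted p = 0.00301 by limma). Doc2b was the only 1 of 26 measured genes of the regulated exocytosis list past the test (0.700% of all probe sets were). That list's median log2 fold change was -0.02. The paralogue Doc2a was near the bottom of the scale, at 20, 13 and 14 in lncKO and 12, 13 and 17 in wild type.

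Mettl21e, a member of a family of protein lysine methyltransferases, had 752, 563 and 495 in lncKO, 178, 339 and 201 in miR-205 KO and 121, 108 and 84 in wild type. The 3 groups did not overlap, with miR-205 KO between the others. Its log2 fold change was 2.53 ± 0.26 (adjusted p = 0.00294 by limma), and the other 6 measured members of its family did not pass. Aqp11, an aquaporin of the endoplasmic reticulum, had 8236, 5790 and 4701 in lncKO, 2547, 2945 and 1987 in miR-205 KO and 1391, 1447 and 1504 in wild type, again without overlap. Its log2 fold change was 2.07 ± 0.22 (adjusted p = 0.00294). No other of the 11 aquaporin genes passed, and Aqp1 had 31, 46 and 36 in lncKO against 54, 86 and 106 in wild type, separated with a log2 difference of -1.09 ± 0.27 (adjusted p = 0.104).

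Slc43a1 and Slc38a6, both amino acid carriers, changed in opposite directions. Slc43a1, a carrier of large neutral amino acids, had 1305, 700 and 766 in lncKO, 152, 436 and 263 in miR-205 KO and 190, 302 and 133 in wild type. The lncKO arrays were above all others, and the log2 fold change was 2.17 ± 0.39 (adjusted p = 0.0283 by limma). The call was lost without any 1 of 5 arrays, all but wild-type array 11, with an adjusted p of up to 0.126. Slc38a6, of the sodium-coupled neutral amino acid transporter family, had 231, 209 and 364 in lncKO, 873, 992 and 620 in miR-205 KO and 1496, 1270 and 1377 in wild type. The groups did not overlap, and miR-205 KO again lay between. The log2 fold change was -2.41 ± 0.24 (adjusted p = 0.00294), 5.30-fold lower in lncKO. Of the 11 Slc38 genes measured, Slc38a6 alone passed; Slc38a2 had 64703, 38186 and 28655 in lncKO against 20037, 19192 and 15614 in wild type, a log2 difference of 1.19 ± 0.26 with an adjusted p of 0.0711.

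**Figure D2:**
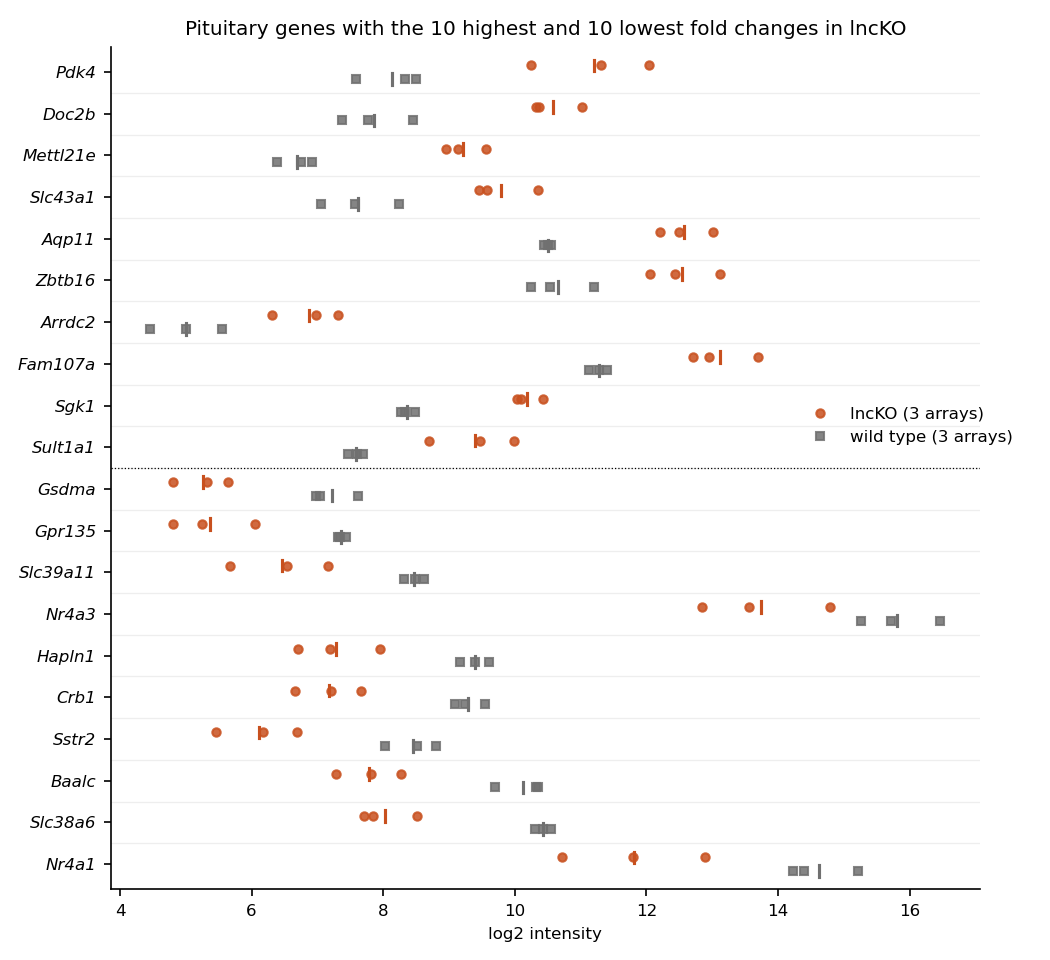
Log2 intensity on the horizontal axis for the called genes with the 10 highest (above the dotted line) and the 10 lowest log2 fold changes; circles are the 3 lncKO arrays, squares the 3 wild-type arrays and vertical bars the group means. The lncKO arrays lie apart from the wild-type arrays in every row because only genes without overlap were chosen. Within lncKO the arrays spread most for Nr4a1, Nr4a3 and Pdk4.

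Several other genes among the lowest were membrane or matrix proteins. Crb1, a polarity protein of the Crumbs family, had 148, 202 and 101 in lncKO, 579, 575 and 561 in miR-205 KO and 750, 604 and 545 in wild type. Both other groups stood above the lncKO arrays, and the log2 fold change was -2.12 ± 0.24 (adjusted p = 0.00301 by limma). The other 16 measured polarity genes did not pass. Hapln1, which links hyaluronan to proteoglycans, had 104, 146 and 247 in lncKO, 325, 527 and 169 in miR-205 KO and 672, 573 and 783 in wild type. Its miR-205 KO arrays overlapped those of lncKO, and its log2 fold change was -2.11 ± 0.38 (adjusted p = 0.0297). Baalc, a membrane-associated protein known from brain and leukaemic cells, differed in both knockouts: it had 308, 224 and 155 in lncKO, 158, 288 and 331 in miR-205 KO and 835, 1284 and 1310 in wild type. The knockouts overlapped each other and lay below wild type, with log2 fold changes of -2.35 ± 0.32 in lncKO (adjusted p = 0.00917) and -2.18 ± 0.32 in miR-205 KO (adjusted p = 0.0310).

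A further 3 genes completed the lowest set. The zinc transporter gene Slc39a11 had 51, 143 and 93 in lncKO against 357, 393 and 318 in wild type. The orphan receptor gene Gpr135 had 28, 38 and 66 in lncKO against 173, 159 and 163 in wild type. The gasdermin gene Gsdma, of a family of pore-forming proteins, had 28, 50 and 40 in lncKO against 132, 126 and 197 in wild type. No lncKO array of these genes reached the lowest wild-type array, and the log2 fold changes lay between -2.01 and -1.96 with adjusted p of 0.0158, 0.0131 and 0.0129. Calls in this group rested on single arrays: without wild-type array 12 the adjusted p was over 0.05 for Slc39a11, Gpr135, Gsdma, Baalc and Hapln1, while Crb1 kept its call without any 1 array. Hapln1 was also lost without lncKO array 13 or 14 or wild-type array 10 or 11, up to 0.126. Gpr135 was lost without lncKO array 13 or 14 (up to 0.0693), Gsdma without lncKO array 13 (up to 0.0751) and Slc39a11 without lncKO array 15 or wild-type array 11 (up to 0.0693).

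None of the 7 pituitary hormone genes passed the test. Growth hormone, Gh, had 966812, 817571 and 937126 in lncKO and 894759, 846707 and 852202 in wild type. The arrays overlapped, and the log2 difference was 0.07 ± 0.15 with a 95% confidence interval of -0.27 to 0.40. Prolactin, Prl, had 911911, 776355 and 877202 in lncKO and 844370, 803845 and 816882 in wild type, also with overlap, for a difference of 0.05 ± 0.15 (interval -0.28 to 0.39). By array brightness, which does not compare amounts between genes, Gh ranked 1 on all 6 arrays and Prl 3 to 4. On miR-205 KO array 18 both had 836965. Whether differences are narrowed at the top of the scale was not tested. The intervals of Cga, the shared subunit of the glycoprotein hormones, and of Tshb were -0.29 to 0.38 and -0.35 to 0.43. The interval of Pomc was wider, -0.44 to 0.68.

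Of 9 measured gonadotroph genes, 7 had a positive and 2 a negative fold change in lncKO, without any passing. Over all probe sets, 51.6% were positive. Lhb, the beta subunit of luteinising hormone, had 459686, 287624 and 387975 in lncKO and 273207, 284353 and 267145 in wild type. Fshb, that of follicle-stimulating hormone, had 126200, 129580 and 130599 in lncKO and 105500, 110982 and 76618 in wild type. For both genes the lncKO arrays lay above the wild-type arrays, by 0.44 ± 0.24 and 0.42 ± 0.23 log2 units with adjusted p of 0.499 and 0.498 by limma. Gnrhr, the receptor for gonadotropin-releasing hormone, had 29155, 47487 and 43792 in lncKO, 50731, 30073 and 24142 in miR-205 KO and 18036, 15386 and 17225 in wild type. Both knockouts stood above wild type, and the lncKO difference was 1.22 ± 0.27 with an adjusted p of 0.068. Of the 9 measured gonadotroph genes, 5 had separated arrays with lncKO higher (8.84% of all probe sets did) and none passed. The list's median log2 fold change was 0.42 in lncKO and 0.33 in miR-205 KO.

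Among 26 receptors for hypothalamic and peripheral hormones, 2 receptors for somatostatin fell and the receptor for corticotropin-releasing hormone rose. Over all probe sets, 0.358% were called lower and 0.342% higher. Somatostatin, the hypothalamic inhibitor of growth hormone release, acts on somatotrophs through Sstr2 and Sstr5. Sstr2 had 44, 103 and 72 in lncKO, 216, 139 and 146 in miR-205 KO and 366, 261 and 447 in wild type. The groups did not overlap, and the log2 fold change was -2.34 ± 0.31 (5.08-fold lower in lncKO, adjusted p = 0.00840 by limma). Sstr5 had 93, 210 and 192 in lncKO, 585, 490 and 330 in miR-205 KO and 674, 484 and 509 in wild type. Its miR-205 KO arrays overlapped wild type while the lncKO arrays lay below both, for -1.82 ± 0.31 (adjusted p = 0.0204). The other somatostatin receptors did not pass: Sstr3 had 88, 209 and 172 in lncKO against 210, 220 and 232 in wild type, separated (-0.59 ± 0.27), and Sstr1 and Sstr4 lay at 35 to 78 in lncKO against 39 to 64 in wild type.

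The releasing-hormone side of the growth hormone axis did not pass. Ghrhr, the receptor for growth hormone releasing hormone, had 31907, 30215 and 37537 in lncKO against 29581, 23595 and 28498 in wild type, with separated arrays and a log2 difference of 0.29 ± 0.20 (interval -0.16 to 0.73, adjusted p = 0.617 by limma). The ghrelin receptor gene Ghsr differed by 0.31 ± 0.29, with overlapping arrays, and the dopamine receptor gene Drd2 by -0.03 ± 0.22. Of the 10 measured somatotroph genes, Sstr5 was the 1 past the test, against 0.700% of all probe sets called. Fold changes were positive for 5 and negative for 5, and the list's median was -0.11. The lncKO arrays lay wholly below wild type for 5 (7.99% of all probe sets) and wholly above it for 1 (8.84% of all). The list's mean log2 intensity was 10.78, 11.05 and 10.98 on the lncKO arrays and 11.46, 11.37 and 11.44 on the wild-type arrays, without overlap. Wnt10a, a Wnt ligand, had 28, 71 and 47 in lncKO, 355, 134 and 136 in miR-205 KO and 143, 166 and 193 in wild type (-1.87 ± 0.39, adjusted p = 0.0525). Pappa2, a protease that cuts insulin-like growth factor binding proteins, had 1245, 2628 and 1470 in lncKO, 1739, 1702 and 2649 in miR-205 KO and 3043, 6501 and 6116 in wild type (-1.55 ± 0.34, adjusted p = 0.0637). Both genes had lncKO arrays wholly below wild type. The Sstr2 call was lost without wild-type array 12 (adjusted p = 0.0505) and the Sstr5 call without lncKO array 13 or any wild-type array (up to 0.0831).

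Of 7 measured corticotroph genes, Tbx19 and Crhr1 rose (0.342% of all probe sets did), while Pomc did not pass. Tbx19, the T-box factor that turns on Pomc in corticotrophs and melanotrophs, had 12048, 15684 and 16730 in lncKO, 7232, 4576 and 6024 in miR-205 KO and 6570, 3068 and 4622 in wild type. The lncKO arrays stood above all 6 others, and the log2 fold change was 1.69 ± 0.27 (3.24-fold, adjusted p = 0.0171 by limma). Crhr1, the receptor for corticotropin-releasing hormone, had 951, 998 and 1027 in lncKO, 803, 648 and 564 in miR-205 KO and 604, 431 and 461 in wild type. Its lncKO arrays were again the highest, at a log2 fold change of 1.01 ± 0.19 (adjusted p = 0.0358). Pomc had 293248, 217681 and 357563 in lncKO against 320377, 200655 and 276138 in wild type, with overlap. All 7 corticotroph genes had a positive fold change, as did 51.6% of all probe sets, and 5 had lncKO arrays wholly above wild type, against 8.84% of all. The list's median was 0.64. The melanotroph markers Oacyl and Esm1 overlapped between the groups, at 54138 to 149138 and 606 to 2909 in lncKO against 47538 to 169834 and 763 to 2357 in wild type. The Tbx19 call was lost without lncKO array 14 or 15 or wild-type array 12 (up to 0.0775), and the Crhr1 call without any 1 array but wild-type array 10 (up to 0.154).

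Glucocorticoid-induced genes held the most called members of any list, 6 of 16, all higher, against 0.342% of all probe sets called higher. Because the lists were chosen with earlier results of these data known, this count and rank are descriptions and not independent evidence. Glucocorticoids act through a nuclear receptor that binds DNA as a dimer and induces, among others, Fkbp5, a co-chaperone that damps the receptor itself, Tsc22d3 (GILZ), an anti-inflammatory leucine zipper protein, and the kinase Sgk1. Sgk1 had 1090, 1050 and 1384 in lncKO, 528, 584 and 572 in miR-205 KO and 358, 310 and 323 in wild type. The groups did not overlap, with miR-205 KO between. The log2 fold change was 1.82 ± 0.17 (3.54-fold, adjusted p = 0.00294 by limma), and Sgk1 was the 1 listed gene that kept its call with the floor at 16 (adjusted p = 0.00946) and without any 1 array.

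Fkbp5 had 48664, 47763 and 33538 in lncKO, 22084, 19191 and 18567 in miR-205 KO and 14106, 17396 and 11344 in wild type. Tsc22d3 had 6645, 4896 and 8627 in lncKO, 3408, 3267 and 3487 in miR-205 KO and 2594, 1934 and 2162 in wild type. For both, the 3 groups were ordered without overlap: lncKO highest, then miR-205 KO, then wild type. Their log2 fold changes were 1.60 ± 0.21 (adjusted p = 0.00840) and 1.56 ± 0.21 (adjusted p = 0.00927). Zbtb16, a zinc finger repressor, had 8902, 5533 and 4265 in lncKO, 2114, 2867 and 2357 in miR-205 KO and 2352, 1487 and 1210 in wild type. Here miR-205 KO overlapped wild type, and the log2 fold change was 1.88 ± 0.29 (adjusted p = 0.0155). Sult1a1, a sulfotransferase for phenols, had 1020, 709 and 415 in lncKO, 167, 254 and 188 in miR-205 KO and 176, 206 and 194 in wild type. Its miR-205 KO and wild-type arrays overlapped, and it rose by 1.80 ± 0.28 in lncKO (adjusted p = 0.0158). The sixth, Ddit4, an inhibitor of the mTOR pathway, is named after its value was seen and changed by 0.86 ± 0.17 (adjusted p = 0.0443, lost without any 1 array, up to 0.139). Without wild-type array 12 the adjusted p was 0.0505 for Fkbp5 and 0.0529 for Tsc22d3; the Zbtb16 call was lost without that array, lncKO array 13 or wild-type array 11 (up to 0.0783), and the Sult1a1 call without that array or lncKO array 13 or 14 (up to 0.0775).

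The other 10 genes of this list did not pass. Dusp1 is 1 of them and also belongs to the immediate early list, under which its values are given. Mt2, a metallothionein, had 310022, 205822 and 464206 in lncKO against 141543, 116042 and 147449 in wild type, with separated arrays and a difference of 1.20 ± 0.32 (adjusted p = 0.123). Klf9 differed by 0.66 ± 0.18, also with separated arrays, and Per1 by 0.02 ± 0.31. Over the 16 genes the median log2 fold change was 0.58, against 0.01 over all probe sets, and 9 had separated arrays with lncKO higher, against 8.84% of all. Fold changes were positive for 13 (51.6% of all probe sets) and negative for 3 (48.2% of all). The mean log2 intensity of the list was 12.27, 12.13 and 12.49 on the lncKO arrays, 11.95, 11.91 and 11.93 on the miR-205 KO arrays and 11.74, 11.42 and 11.56 on the wild-type arrays. Each lncKO array lay above all others. The glucocorticoid receptor gene Nr3c1 itself had 362, 414 and 424 in lncKO against 640, 652 and 411 in wild type, with overlap (-0.48 ± 0.24, adjusted p = 0.456). The count of 6 was 1 without wild-type array 12, 3 without lncKO array 13, 4 without lncKO array 14 or wild-type array 11, and 5 without lncKO array 15 or wild-type array 10.

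Fam107a and Txnip, which are not in that list, rose as well. Fam107a, a stress-responsive actin-binding protein, had 13250, 6654 and 7939 in lncKO, 2971, 3832 and 4099 in miR-205 KO and 2711, 2243 and 2484 in wild type, without overlap (1.84 ± 0.24, adjusted p = 0.00840 by limma). Txnip, which binds thioredoxin and limits glucose uptake, had 230927, 178928 and 177456 in lncKO, 134206, 160611 and 119652 in miR-205 KO and 92437, 92973 and 75163 in wild type. The groups were ordered as for Fkbp5, and the log2 fold change was 1.17 ± 0.19 (adjusted p = 0.0170). Of the 14 measured fasting-induced genes, Pdk4 and Txnip passed (0.700% of all probe sets did), and the list's median log2 fold change was 0.10. Angptl4 had 946, 799 and 850 in lncKO against 481, 357 and 448 in wild type (1.02 ± 0.21, adjusted p = 0.0534), and Cpt1a differed by 0.02 ± 0.15. The Fam107a call was lost without wild-type array 12 (0.0505) and the Txnip call without that array or lncKO array 13 (up to 0.0887).

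The promoters of genes that rose were searched for a glucocorticoid response element, the sequence bound by the receptor dimer, and 3 are shown because they hold one. The motif was GNACA, any 3 bases, then TGTNC, which is its own reverse complement and was searched on both strands in windows of 250 bases before to 50 after the gene start (RefSeq, GRCm38.p6). It occurred in 156 of 32851 promoters (0.475%), in 4 of the 77 promoters found for genes called higher (5.19%; 53 of 67 genes matched) and in 0 of the 68 for genes called lower (47 of 70 genes matched). Of the 24 promoters of glucocorticoid-induced genes, 2 held it (8.33%), those of Mt1 and Sgk1, so the Sgk1 promoter is counted in both sets. Of the 19 promoters of immediate early genes, 1 held it (5.26%). The 4 promoters of genes called higher belong to Sgk1, to Txnip and, in overlapping windows, to Fam107a. Sgk1 alone of these holds the full form, AGAACA, any 3 bases, then TGTTCT, found in 3 of all promoters (0.00913%). A match describes these letters, not binding. The windows are at chr10:21993640-21993939 on the plus strand for Sgk1, which has 6 promoters in the table, at chr14:8309730-8310029 on the minus strand for Fam107a, and at chr3:96557707-96558006 on the plus strand for Txnip. Capitals mark the match, which starts 188 bases before the gene start in Sgk1, 118 in Fam107a and 172 in Txnip.
Sgk1: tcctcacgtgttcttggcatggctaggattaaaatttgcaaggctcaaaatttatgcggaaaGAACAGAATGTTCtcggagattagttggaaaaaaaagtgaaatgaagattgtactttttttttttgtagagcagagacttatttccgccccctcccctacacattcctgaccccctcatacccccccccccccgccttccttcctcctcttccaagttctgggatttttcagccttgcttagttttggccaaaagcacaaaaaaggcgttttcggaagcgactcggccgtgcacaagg
Fam107a: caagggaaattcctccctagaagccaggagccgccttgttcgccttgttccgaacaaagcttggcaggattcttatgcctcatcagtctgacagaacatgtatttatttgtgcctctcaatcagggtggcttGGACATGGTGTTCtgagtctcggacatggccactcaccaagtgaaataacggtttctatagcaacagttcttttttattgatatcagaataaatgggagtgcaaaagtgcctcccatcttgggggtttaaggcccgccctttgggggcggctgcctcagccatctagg
Txnip: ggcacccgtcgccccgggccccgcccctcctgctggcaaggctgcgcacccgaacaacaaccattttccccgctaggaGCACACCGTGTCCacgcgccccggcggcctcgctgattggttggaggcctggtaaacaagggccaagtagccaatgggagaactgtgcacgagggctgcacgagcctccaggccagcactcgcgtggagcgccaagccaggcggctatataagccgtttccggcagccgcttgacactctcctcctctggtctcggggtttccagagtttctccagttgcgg

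The largest fall among called genes was that of Nr4a1, and Nr4a1 and Nr4a3 were the immediate early genes past the test. NR4A proteins are orphan nuclear receptors that respond quickly to hormones acting through cyclic AMP, and in corticotrophs Nr4a1 (Nur77) takes part in the Pomc response. Nr4a1 had 3569, 1679 and 7620 in lncKO, 37892, 22998 and 17930 in miR-205 KO and 38096, 19207 and 21630 in wild type. The lncKO arrays lay below all 6 others, which overlapped each other. The log2 fold change was -2.81 ± 0.47 (7.02-fold lower in lncKO, adjusted p = 0.0191 by limma). Nr4a3 had 12122, 7363 and 28349 in lncKO, 51323, 58273 and 46903 in miR-205 KO and 90640, 39107 and 53943 in wild type, with the same separation, for a log2 fold change of -2.08 ± 0.42 (adjusted p = 0.0466). Nr4a2 had 22267, 11187 and 53598 in lncKO, 95435, 81997 and 79992 in miR-205 KO and 135962, 59145 and 88016 in wild type; it was separated too but did not pass (-1.91 ± 0.45, adjusted p = 0.0910). Within lncKO, array 15 was the highest and array 14 the lowest for all 3 genes.

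Of 19 immediate early genes, these 2 passed (0.700% of all probe sets did) and 16 had a negative fold change (48.2% of all). The list's median was -0.81, against 0.27 in miR-205 KO. Fosb had 368, 223 and 834 in lncKO, 2300, 3133 and 1347 in miR-205 KO and 3626, 1015 and 1504 in wild type, with separated lncKO arrays (-2.11 ± 0.51, adjusted p = 0.0943). Fos had 187, 353 and 831 in lncKO against 781, 724 and 2901 in wild type, with overlap (-1.63 ± 0.59). The phosphatase gene Dusp1 is also a member of the glucocorticoid-induced list. It had 14845, 23291 and 61947 in lncKO, 105585, 141588 and 120747 in miR-205 KO and 58958, 36149 and 64120 in wild type, with overlap between lncKO and wild type. The spread was wide in lncKO and wild type: the mean log2 intensity of the list was 9.76, 9.68 and 10.68 on the lncKO arrays, 11.43, 11.49 and 11.26 on the miR-205 KO arrays and 11.34, 10.44 and 11.02 on the wild-type arrays. lncKO array 15 lay above wild-type array 11, so the list's levels overlapped. Both NR4A calls were lost without lncKO array 13 or 14 or wild-type array 10 or 12, and the Nr4a3 call also without wild-type array 11 (up to 0.0775 for Nr4a1 and 0.163 for Nr4a3). They were lost as well in a fit of the 6 arrays alone (0.0641 and 0.128) and with trend and robust estimation (0.0838 and 0.133).

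The Nr4a1 promoter is shown because it holds several copies of TGACG, the core of the cyclic AMP response element, searched on both strands. It lies at chr15:101266596-101266895 on the plus strand, and capitals mark 4 matches, all read as CGTCA, starting 233, 213, 69 and 40 bases before the gene start. TGACG occurred in 20.8% of all promoters, in 12 of the 19 promoters of immediate early genes (63.2%), in 12 of 77 for genes called higher (15.6%), in 22 of 68 for genes called lower (32.4%) and in 8 of 24 for glucocorticoid-induced genes (33.3%). These sets share genes: Nr4a1 and Nr4a3 are both immediate early and called lower, and Dusp1 is in both lists.
Nr4a1: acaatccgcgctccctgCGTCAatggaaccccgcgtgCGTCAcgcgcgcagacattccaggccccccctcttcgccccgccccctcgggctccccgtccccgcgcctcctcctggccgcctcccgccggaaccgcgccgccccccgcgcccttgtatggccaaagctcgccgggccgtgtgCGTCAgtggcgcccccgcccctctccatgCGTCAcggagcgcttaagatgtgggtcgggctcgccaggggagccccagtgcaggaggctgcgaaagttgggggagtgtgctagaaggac

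**Figure D3:**
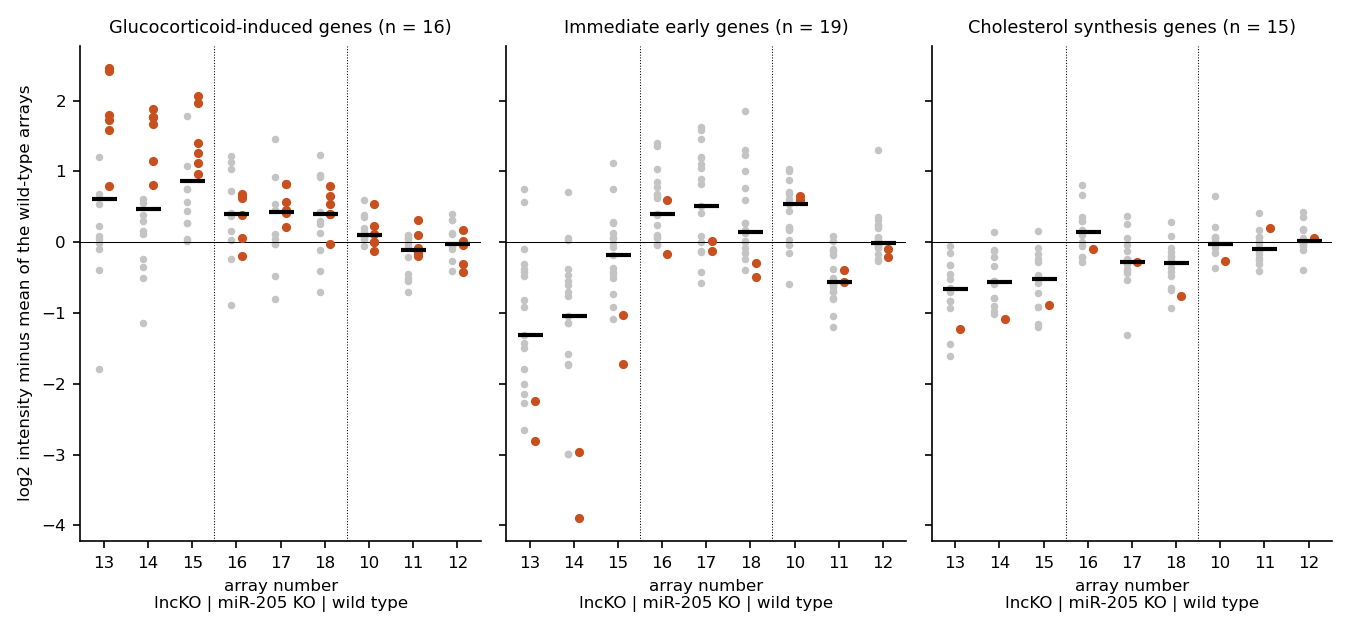
Log2 intensity minus the mean of the 3 wild-type arrays for each gene of 3 lists (16 glucocorticoid-induced, 19 immediate early and 15 cholesterol synthesis genes), by array; orange points are genes called in lncKO pituitary, grey points the others and bars the median over the list. Medians of glucocorticoid-induced genes lie above 0 on each lncKO array, those of cholesterol genes below 0, and those of immediate early genes below 0 with array 15 nearest to wild type.

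Of 15 measured cholesterol synthesis genes, 1 fell in lncKO, against 0.358% of all probe sets called lower. Idi1, an isomerase of the isoprenoid steps, had 322, 355 and 408 in lncKO, 705, 619 and 447 in miR-205 KO and 628, 871 and 786 in wild type. Its lncKO arrays lay below all others, and its log2 fold change was -1.07 ± 0.21 (adjusted p = 0.0429 by limma); the call was lost without any 1 array but wild-type array 10 (up to 0.164). All 15 genes had a negative fold change, as did 48.2% of all probe sets, and 11 had lncKO arrays wholly below wild type, against 7.99% of all. The list's median was -0.60 in lncKO and -0.22 in miR-205 KO. Msmo1, a sterol oxidase, had 121, 163 and 143 in lncKO against 319, 265 and 419 in wild type (-1.22 ± 0.26, adjusted p = 0.0623). Sc5d, a sterol desaturase, had 2808, 3129 and 2430 in lncKO against 4333, 4818 and 4635 in wild type (-0.73 ± 0.17, adjusted p = 0.0818). Srebf2, the transcription factor of the pathway, differed by -0.22 ± 0.19, with overlap. The list's mean log2 intensity was 9.66, 9.81 and 9.81 on the lncKO arrays, 10.52, 10.11 and 10.04 on the miR-205 KO arrays and 10.38, 10.32 and 10.42 on the wild-type arrays, and every lncKO array lay below all others.

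Of 19 clock genes, Ciart passed, against 0.700% of all probe sets called. Ciart, a repressor of the CLOCK activator complex, had 86, 112 and 90 in lncKO, 45, 67 and 68 in miR-205 KO and 32, 30 and 48 in wild type, without overlap between lncKO and the rest (1.41 ± 0.23, adjusted p = 0.0186 by limma); the call was lost without any 1 array but wild-type array 12 (up to 0.0755). Dbp, an output factor of the clock, had 78177, 45288 and 65688 in lncKO, 26529, 31796 and 25813 in miR-205 KO and 36059, 18070 and 11873 in wild type. Nr1d1, a repressor of the core loop, had 12860, 7055 and 7830 in lncKO, 3550, 4957 and 4830 in miR-205 KO and 5183, 2424 and 1169 in wild type. Both were separated from wild type, by 1.64 ± 0.34 (adjusted p = 0.0533) and 1.87 ± 0.43 (adjusted p = 0.0788) log2 units, and in both the wild-type arrays spread widely. The core genes Clock and Per1 differed by -0.14 ± 0.17 and 0.02 ± 0.31. The list's median was 0.20.

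Among stem and folliculostellate cell genes, 1 of 15 passed, against 0.700% of all probe sets called. Sox2, the transcription factor of pituitary stem cells, had 4036, 3712 and 2901 in lncKO, 2199, 2693 and 2179 in miR-205 KO and 1614, 1605 and 1815 in wild type, and the 3 groups did not overlap. Its log2 fold change was 1.07 ± 0.18 (adjusted p = 0.0204 by limma), and the call was lost without any 1 array but lncKO array 15 (up to 0.0951). Sox9 had 1094, 588 and 748 in lncKO against 798, 514 and 572 in wild type, with overlap (0.35 ± 0.24). The summed intensity of the list was 87104 to 99959 on the lncKO arrays, 76649 to 103515 on the miR-205 KO arrays and 68560 to 79167 on the wild-type arrays. Of the secretory granule genes, 1 of 15 passed, also against 0.700% of all. This was Vgf, a precursor of neuroendocrine peptides, with 112, 110 and 127 in lncKO against 43, 47 and 58 in wild type (1.25 ± 0.21, limma adjusted p = 0.0191). No single array of the 6 could be left out without losing the Vgf call (up to 0.0783). Chga, chromogranin A, had 108603, 112428 and 125709 in lncKO against 84497, 78167 and 67959 in wild type, separated but not past the test (0.59 ± 0.17, adjusted p = 0.169).

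Arrdc2 of the highest set and the Y-linked Eif2s3y changed too. Arrdc2, of the arrestin-domain family, had 79, 159 and 126 in lncKO, 49, 43 and 36 in miR-205 KO and 47, 22 and 32 in wild type (1.86 ± 0.30, adjusted p = 0.0171 by limma). Eif2s3y, a subunit of a translation initiation factor, had 559, 927 and 796 in lncKO, 1278, 1231 and 1225 in miR-205 KO and 1556, 1640 and 1535 in wild type, without overlap between the 3 groups (-1.08 ± 0.19, adjusted p = 0.0283). The other Y-linked genes did not follow: Kdm5d had 229, 279 and 225 in lncKO against 318, 172 and 284 in wild type (-0.04 ± 0.23), and Uty 2040, 2026 and 2025 in lncKO against 1892, 2215 and 1949 in wild type (0.01 ± 0.16). The Arrdc2 call was lost without lncKO array 14 or 15 or wild-type array 11 or 12 (up to 0.0783), and the Eif2s3y call without any 1 array but lncKO array 14 (up to 0.109).

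Neighbours of the locus and published targets of miR-205 held no called gene, at a share of 0.700% called over all probe sets. The lncKO arrays lay wholly above wild type for 4 of 12 neighbours and 5 of 14 targets, against 8.84% of all probe sets, and wholly below it for none. Of 12 neighbouring genes measured, Lamb3, a laminin chain of epithelial basement membranes, had the largest difference: 72, 66 and 71 in lncKO, 28, 24 and 14 in miR-205 KO and 48, 19 and 26 in wild type (1.28 ± 0.32, adjusted p = 0.107 by limma). The lncKO arrays lay above both other groups, which overlapped. Hsd11b1, which reactivates glucocorticoids inside cells, is also a neighbour and had 2815, 3367 and 2824 in lncKO against 2625, 3216 and 4092 in wild type (-0.12 ± 0.20). The medians were 0.24 over the neighbours and 0.18 over 14 targets. Among the targets, Zeb1 differed by 0.09 ± 0.18.

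Markers of other cell types that a dissected gland could hold had 0 called members in each of 12 lists (endothelium, pericytes and fibroblasts, macrophages, lymphocytes and granulocytes, erythroid cells, hypothalamic neurons, glia, trigeminal nerve, skeletal muscle, bone and cartilage, keratinocytes and adipocytes); with 0.700% of all probe sets called, lists of this size would hold few. At an unadjusted p under 0.05 the endothelial list had 3 of 10 higher, and the others 0 to 1 higher and 0 to 2 lower. Of all probe sets, 6.70% were higher and 5.80% lower at that p. Summed intensities were 508 to 549 in lncKO against 532 to 616 in wild type for 12 muscle genes, 145 to 163 against 129 to 163 in wild type for 9 keratinocyte genes, and 3213 to 4261 against 3910 to 4461 in wild type for 10 macrophage genes. For 7 trigeminal genes the sum was 3391 to 7730 in lncKO and 2109 to 2260 in wild type, nearly all of it Pmp22 (3321, 7625 and 3305 in lncKO against 2050, 2022 and 2159 in wild type), while the neuronal markers Prph, Trpv1, Scn10a, Scn11a and Avil were at or below 31 on all 6 arrays. For 10 pericyte and fibroblast genes the sum was 69632 to 88766 in lncKO and 57456 to 72507 in wild type. For 12 posterior lobe genes it was 7496 to 11202 in lncKO and 6236 to 7288 in wild type: Avp had 168, 70 and 129 in lncKO against 54, 52 and 64 in wild type (1.03 ± 0.27, adjusted p = 0.125) and Oxt 584, 353 and 446 in lncKO against 329, 239 and 282 in wild type (0.68 ± 0.22, adjusted p = 0.208). For 7 adipocyte genes the sum was 158 to 178 in lncKO and 238 to 309 in wild type. Their mean log2 intensity was near the bottom of the scale, at 3.87 to 4.06 in lncKO and 4.22 to 4.34 in wild type. For 10 endothelial genes the sum was 7193 to 9164 in lncKO and 6200 to 7367 in wild type. Their mean log2 intensity did not overlap, at 8.27 to 8.56 in lncKO and 8.05 to 8.26 in wild type. Of these genes, 4 were separated with lncKO higher (8.84% of all probe sets). The posterior lobe, stem cell, trigeminal and adipocyte sums thus did not overlap between the genotypes, while the other sums given here did. Their part in the changes above was not tested.

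**Figure D4:**
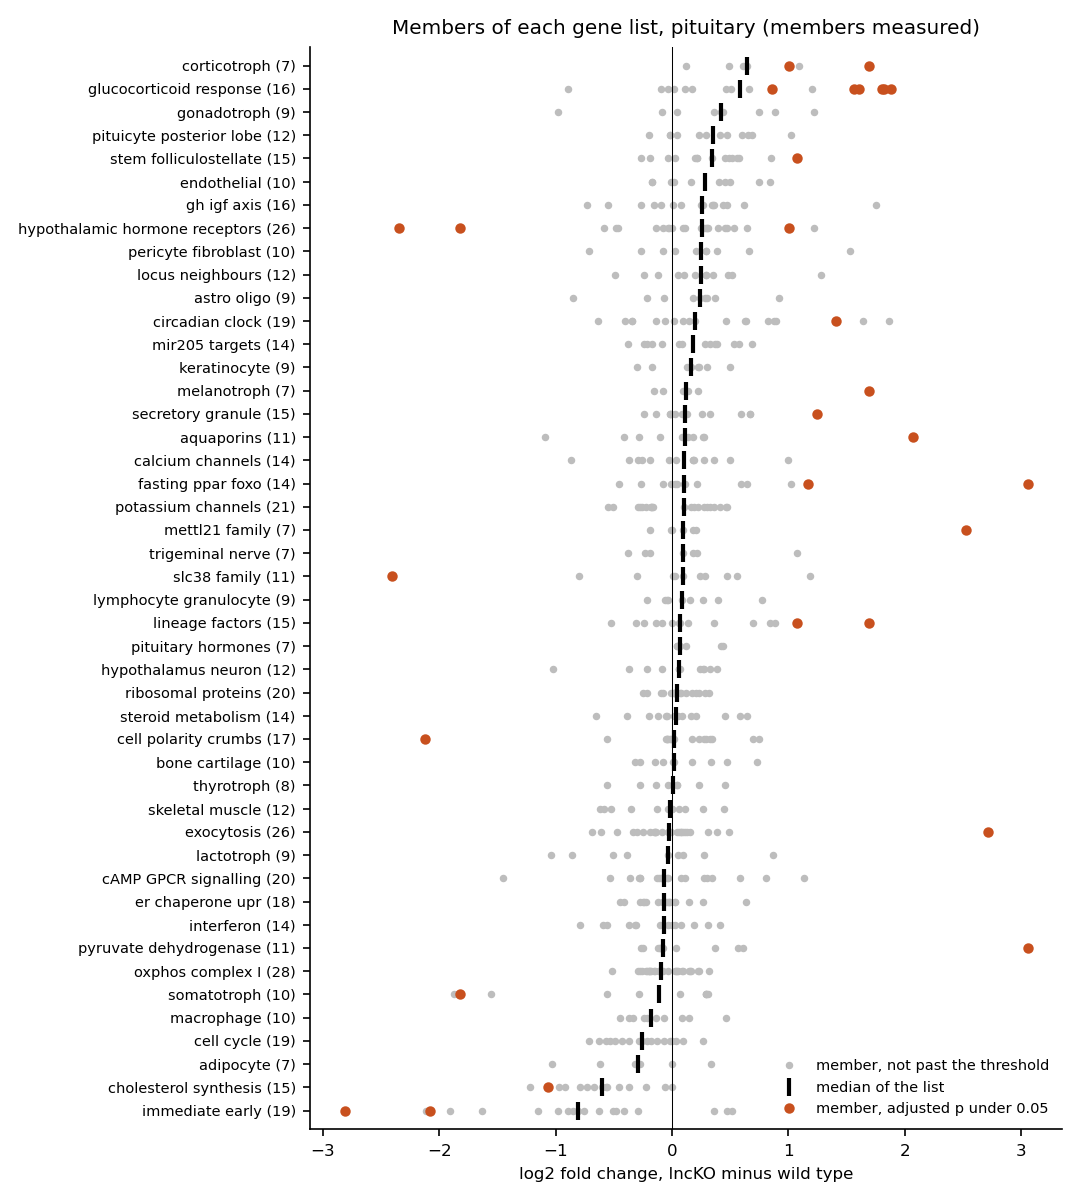
Log2 fold changes of lncKO over wild type for the members of the 46 gene lists with at least 7 measured genes; points are genes, orange where called, and bars are list medians. Medians run from -0.81 for immediate early genes to 0.64 for corticotroph genes, with 0.58 for glucocorticoid-induced genes and -0.60 for cholesterol synthesis genes.

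The 2 knockouts of the gland were set side by side. They share their wild-type arrays, so their fold changes against wild type share an error, and the direct contrast of lncKO with miR-205 KO was tested in the same fit. It called 57 probe sets (0.291%), 27 higher and 30 lower in lncKO; the count was 4, 11 and 24 without miR-205 KO arrays 16, 17 and 18, and 14, 9 and 37 without lncKO arrays 13, 14 and 15. Of the 137 genes that differed between lncKO and wild type, 25 also differed between lncKO and miR-205 KO; both contrasts hold the same lncKO arrays, so nothing is read from that overlap. miR-205 KO itself differed from wild type at 21 probe sets (0.107%), 6 of them among the 137.

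Among named genes, Nr4a1 (-2.81 ± 0.47, adjusted p = 0.0364 by limma), Crb1 (-1.98 ± 0.24, adjusted p = 0.00878), Gpr135 (-1.96 ± 0.30, adjusted p = 0.0261) and Slc38a6 (-1.64 ± 0.24, adjusted p = 0.0176) were lower in lncKO than in miR-205 KO. Sult1a1 (1.74 ± 0.28, adjusted p = 0.0335), Doc2b (1.68 ± 0.30, adjusted p = 0.0483), Aqp11 (1.30 ± 0.22, adjusted p = 0.0400) and Sgk1 (1.06 ± 0.17, adjusted p = 0.0296) were higher. For Pdk4 (1.75 ± 0.45, adjusted p = 0.145), Sstr2 (-1.25 ± 0.31, adjusted p = 0.135) and Baalc (-0.16 ± 0.32, adjusted p = 0.902) the contrast did not pass.

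**Figure D5:**
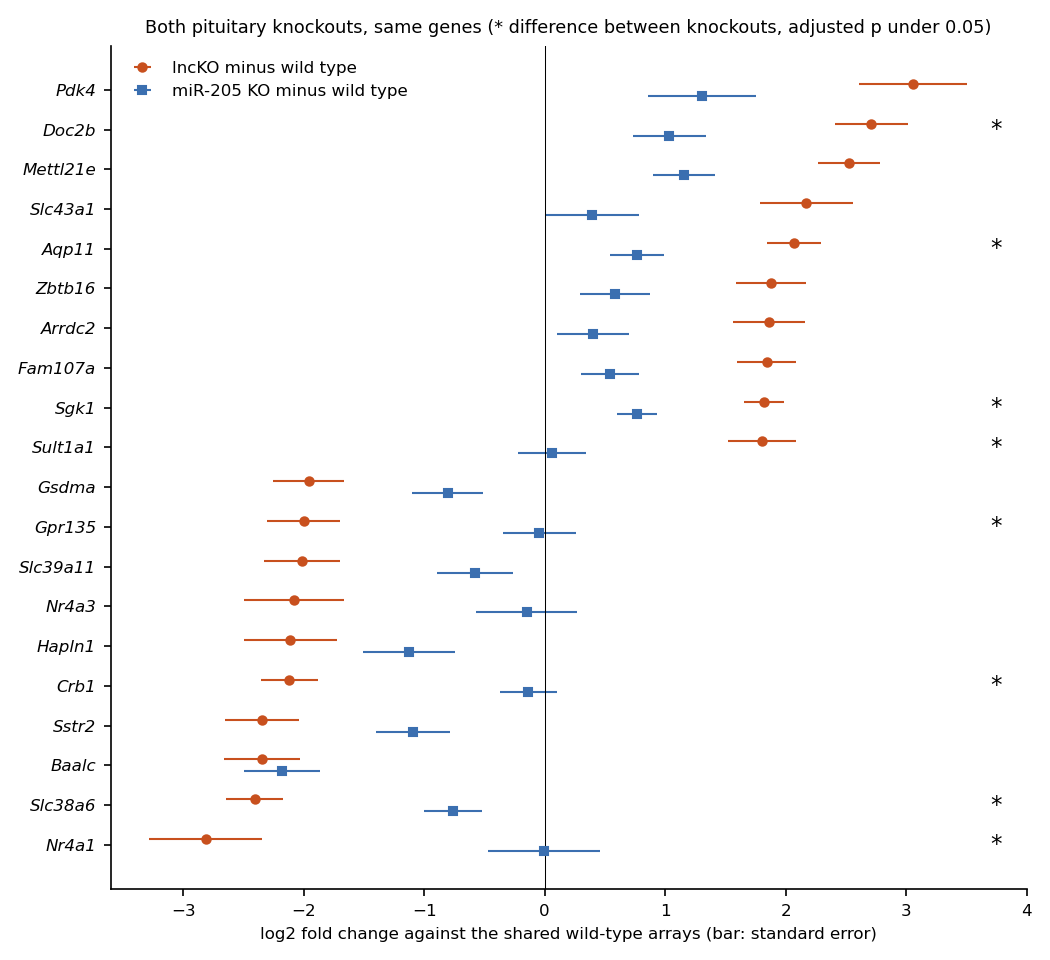
Log2 fold change over the same 3 wild-type arrays in lncKO (circles) and miR-205 KO (squares) pituitary for the genes with the 10 highest and 10 lowest lncKO fold changes; bars are standard errors and asterisks mark genes whose direct lncKO minus miR-205 KO contrast passed. Baalc lies at -2.35 in lncKO and -2.18 in miR-205 KO, while Nr4a1 lies at -2.81 in lncKO and -0.01 in miR-205 KO.

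In skin, 18 of the 31 named genes called in pituitary had a lncKO difference that departed from the pituitary one in limma's interaction of all 18 arrays, which called 1811 probe sets in all (9.25%). Of these, 1151 had a higher and 660 a lower lncKO difference in pituitary; with each array centred on its median the split was 808 and 867. Doc2b differed by 2.71 log2 units in pituitary and by -1.17 in skin, Sox2 by 1.07 and -1.60, and Sstr2 by -2.34 and 0.45. In skin only Sox2 of these passed (limma adjusted p = 3.49e-05), while Doc2b (0.062) and Sstr2 (0.335) did not. All 9 pituitary arrays carried Y-linked signal and all 9 skin arrays did not. Tissue and apparent sex therefore cannot be told apart in this comparison.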

How the data were processed

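RNA of 9 pituitary and 9 skin samples was hybridised to Clariom S arrays after labelling of cDNA made from amplified RNA, per the labels' protocols. The table the authors deposited gives an untransformed intensity, a whole number from 4 to 966812, for each probe set on each pituitary array. Its background correction, summarisation and normalization were not given in the sources used here. Gene symbols came from the platform annotation: 19572 of 22206 probe sets have 1 symbol and were tested, and 2634 have none. The log2 of each intensity was taken here without a pseudocount. Groups are those of the labels, and 0 columns of other samples were present. limma 3.58.1 in R 4.3.3 fitted group means of the 9 pituitary arrays (lmFit, eBayes, two-sided) for lncKO against wild type and against miR-205 KO; all 18 arrays were fitted for the comparison with skin. P-values were adjusted by Benjamini-Hochberg over all probe sets tested, with a threshold of 0.05. The number of arrays limits the precision. Figures and promoter searches used Python 3.11.15 with pandas 2.3.3 and matplotlib 3.10.9.

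Named genes were the 10 highest and 10 lowest log2 fold changes among called probe sets whose lncKO and wild-type arrays did not overlap, up to 4 called members of each gene list by smallest p, and a fixed set of hormone, receptor, Y-linked and other genes; some genes are not reported here. List members that did not pass were picked as examples. The comparison, the gene lists and the fixed set were chosen with earlier results of these data known. Of 658 listed genes, 591 were measured. Alternatives covered the arrays in the fit, quantile normalization, median centring, a floor at an intensity of 16, a filter on dim probe sets, trend and robust estimation, probe sets without a symbol and leaving out each array.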

Additional observations from a re-analysis of the deposited data

Results flagged for a closer look

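For 21 named genes the lncKO difference in pituitary departed from that in skin by limma's interaction test over all 18 arrays, which is what singled them out. Each value below is the pituitary log2 difference of lncKO minus wild type less the same difference in skin. Only the pituitary arrays carried Y-linked signal, so tissue and apparent sex cannot be told apart here. Above 0 were Gh (4.48, adjusted p = 0.0334), Doc2b (3.88, adjusted p = 0.000768), Arrdc2 (3.22, adjusted p = 0.0012), Slc43a1 (2.87), Pdk4 (2.78), Sgk1 (2.72), Sox2 (2.67, adjusted p = 2.91e-05), Aqp11 (2.65), Tbx19 (2.53), Vgf (1.82) and Gnrhr (1.57). Below 0 were Idi1 (-0.95), Tshb (-1.3), Baalc (-1.64), Slc39a11 (-1.98), Nr4a3 (-2.2), Sstr5 (-2.63), Sstr2 (-2.79), Gsdma (-2.98), Gpr135 (-3.02, adjusted p = 6.9e-05) and Hapln1 (-3.22).

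The interaction of Gh and of Tshb came from skin, where the differences were -4.42 and 1.34, against 0.07 and 0.04 in pituitary. Sox2, Tbx19, Arrdc2, Gsdma and Gpr135 passed in each tissue with opposite signs: Sox2 differed by 1.07 in pituitary and -1.60 in skin, Tbx19 by 1.69 and -0.84, Arrdc2 by 1.86 and -1.36, and Gsdma by -1.96 and 1.02; Gpr135 differed by 1.03 in skin.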

How the results depend on the processing

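The count of 137 probe sets called between lncKO and wild type was 59 in a fit of the 6 arrays alone, 11 with a floor at an intensity of 16, 248 among probe sets with a mean log2 intensity of at least 5, and 307 with trend and robust estimation. Leaving out 1 array gave 11 to 123. Quantile normalization, median centring, all 18 arrays in 1 fit and probe sets without a symbol gave 143 to 166. Among the 591 measured list members, 24 were called, against 14 with 6 arrays, 1 with the floor, 42 with trend and robust estimation, and 7 to 23 without 1 array. The 57 calls between lncKO and miR-205 KO became 27, 18, 132 and 161 with 6 arrays, the floor, the filter and trend and robust estimation, and 4 to 37 without 1 array. For the comparison with skin, 1811 calls became 1675 with median centring (808 higher, 867 lower) and 1674 with the floor (969 higher, 705 lower). The cause of these shifts was not tested. None of the results changed sign past the threshold in the alternatives run. No paired analysis was possible because the sample numbers do not recur between groups.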

Other observations

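Foxo1 and Akt2, called genes outside the named set, were chosen after their values were seen, and no list stands behind them. Foxo1, a transcription factor switched off by insulin, had 3966, 4770 and 3751 in lncKO, 2341, 2190 and 2481 in miR-205 KO and 1791, 1889 and 1374 in wild type (log2 fold change 1.31 ± 0.18, limma adjusted p = 0.00927). The groups did not overlap. Akt2, a kinase of the insulin pathway, had 737, 900 and 1054 in lncKO, 1440, 1201 and 1352 in miR-205 KO and 2255, 2116 and 2024 in wild type, with the same order reversed (-1.26 ± 0.18, adjusted p = 0.0101). Without wild-type array 12 the adjusted p was 0.0563 for Foxo1 and 0.0529 for Akt2.

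Another 3 genes kept their call without any 1 array. Mrpl20, a protein of the mitochondrial ribosome, had 3848, 5462 and 4394 in lncKO, 941, 1302 and 1313 in miR-205 KO and 1491, 1370 and 1170 in wild type (1.76 ± 0.20, adjusted p = 0.00332). Only the lncKO arrays stood apart there. Uxs1, which makes UDP-xylose for proteoglycan chains, had 2732, 3068 and 2694 in lncKO, 1761, 2505 and 2307 in miR-205 KO and 925, 843 and 911 in wild type. It passed against wild type in both knockouts, at 1.66 ± 0.18 in lncKO (adjusted p = 0.00294) and 1.28 ± 0.18 in miR-205 KO (adjusted p = 0.0242). Cep85l, a centrosomal protein, had 3121, 3095 and 2781 in lncKO, 1755, 1724 and 2013 in miR-205 KO and 1143, 1087 and 1115 in wild type (1.43 ± 0.16, adjusted p = 0.00294), with no overlap between the 3 groups.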
